A study of Homo sapiens with 9 samples.

Results

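Receptor tyrosine kinases other than the receptors of the HER family can feed the same signalling pathways as the epidermal growth factor receptor, EGFR, which the antibody cetuximab blocks. The 10 genes described here are such receptors: MET, MST1R, AXL, TYRO3, MERTK, RET, KIT, DDR1, ROR1 and PTK7. They were taken by symbol from count tables that list 58920 genes. The cells were LIM1215, a human colorectal cancer cell line, in 3 groups. LIM1215-parental cells had not been selected with the drug, while LIM1215-R1 and LIM1215-R2 were derived from them in parallel by months of culture in rising concentrations of cetuximab. Both resistant lines are mixed, non-clonal populations, and the study describes an activating HRAS mutation in part of the cells of each. They are named R1 and R2 here. All 3 lines were sequenced from untreated culture, with 3 libraries per line.

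A receptor tyrosine kinase is a protein that crosses the cell membrane once. Binding of its ligand brings receptors together, the intracellular kinase domains phosphorylate one another, and adaptor proteins recruited to the phosphotyrosines start the RAS-MAPK, PI3K and STAT pathways. MET and MST1R, also called RON, are receptors of hepatocyte growth factor and of macrophage-stimulating protein in epithelial cells. TYRO3, AXL and MERTK form the TAM family, which binds GAS6 and protein S. ROR1 and PTK7 are receptor-like proteins with little or no kinase activity of their own that take part in Wnt signalling and planar cell polarity. DDR1 is a receptor for collagen, RET is the signalling receptor of the GDNF family and is known from enteric neurons, and KIT is the stem cell factor receptor of mast cells and of the pacemaker cells of the gut.

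The 9 libraries held between 13737416 and 18725014 counts. In a single library, 3 counts, taken as the limit that a count of 0 allows, correspond to 0.160 to 0.218 CPM, the counts of a gene relative to the total of its library. The legend of a supplementary figure of the study calls the replicates technical, so the p-values given here measure the spread between these libraries, and a difference between lines cannot be told apart from a difference in culture or harvest. Of 8 markers of colorectal epithelium, all but KRT20, which had no count in any library, were expressed. Their summed level was 12064 to 12430 CPM in parental cells, 15734 to 16008 CPM in R1 and 14228 to 14633 CPM in R2, and its part in the results was not tested. The markers did not move together. Of the 7 with enough counts for the test described below, 4 were higher and 2 lower in each resistant line. KRT8, with means of 5716, 7882 and 7169 CPM, weighed most in the sum. EPCAM fell by 0.26 on the log2 scale in R1 and 0.32 in R2, and CDX2 by 0.44 and 0.54. The markers of mast cells, which express KIT, were all at 0, and those of enteric neural cells, where RET is known, reached at most 0.0627 CPM in sum. The summed markers of fibroblasts (1.19 to 3.19 CPM), endothelium (0.0653 to 0.722 CPM) and leukocytes (6.96 to 14.4 CPM) were also low. In RNA of a cell population, fewer cells that express a gene and less RNA per cell cannot be told apart.

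Of the 10 receptors, 4 were higher in both resistant lines than in parental cells: ROR1, TYRO3, MST1R and PTK7. The bases before the transcription start sites of these 4 receptors are shown. They are the 250 bases upstream of the start in RefSeq (GRCh38.p14), 5′ to 3′ on the gene's strand, with each CG step in capitals; where RefSeq gives several starts, the one nearest to the 5′ end of the GENCODE gene was taken. The windows are chr1:63773767-63774016 (plus strand) for ROR1, chr15:41558962-41559211 (plus strand) for TYRO3, chr3:49903874-49904123 (minus strand) for MST1R and chr6:43076064-43076313 (plus strand) for PTK7.
ROR1: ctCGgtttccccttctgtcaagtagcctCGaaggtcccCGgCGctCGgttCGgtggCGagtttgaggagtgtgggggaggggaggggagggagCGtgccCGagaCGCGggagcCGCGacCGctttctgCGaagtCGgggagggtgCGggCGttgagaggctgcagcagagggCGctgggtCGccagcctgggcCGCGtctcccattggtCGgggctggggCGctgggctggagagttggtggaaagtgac
TYRO3: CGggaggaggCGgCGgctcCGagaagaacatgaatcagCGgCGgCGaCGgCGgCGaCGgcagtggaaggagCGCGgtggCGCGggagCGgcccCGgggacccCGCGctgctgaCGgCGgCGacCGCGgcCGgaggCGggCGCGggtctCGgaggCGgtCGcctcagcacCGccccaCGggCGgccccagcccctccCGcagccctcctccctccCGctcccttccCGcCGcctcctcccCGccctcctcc
MST1R: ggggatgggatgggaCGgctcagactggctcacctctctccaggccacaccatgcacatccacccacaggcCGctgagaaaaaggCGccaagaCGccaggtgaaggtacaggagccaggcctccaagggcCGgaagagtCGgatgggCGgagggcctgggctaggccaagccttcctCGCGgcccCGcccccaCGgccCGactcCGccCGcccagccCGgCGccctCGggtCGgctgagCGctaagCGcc
PTK7: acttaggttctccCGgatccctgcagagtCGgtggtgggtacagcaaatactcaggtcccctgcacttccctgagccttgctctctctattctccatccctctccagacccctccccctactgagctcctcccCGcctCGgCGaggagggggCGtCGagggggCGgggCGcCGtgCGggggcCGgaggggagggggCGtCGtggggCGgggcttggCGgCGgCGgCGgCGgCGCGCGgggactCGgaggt

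All 4 windows were rich in G and C. The GC content was 69.2% for ROR1, 80.0% for TYRO3, 70.8% for MST1R and 71.6% for PTK7, and the number of CG steps was 24, 39, 20 and 24. Over 34943 promoter windows of the same length, the median was 58.0% GC and 11 CG steps. Such windows were not limited to these 4: KIT, which had almost no reads, had 76.4% GC with 34 CG steps, and MERTK 78.8% with 25. The first window of DDR1 (60.4% GC, 6 CG steps) and the first of AXL (64.4% GC, 4 CG steps) held fewer CG steps than the median. RefSeq gives further starts for both genes. Another window of AXL held 13 CG steps, above the median, and the windows of DDR1 ranged from 2 to 30. The GC box (GGGCGG, searched on both strands) occurred 3 times before TYRO3, 4 times before MST1R, 2 times before PTK7 and 0 times before ROR1, and 42.5% of all windows held it. The AP-1 motif TGANTCA occurred before TYRO3 once among the 4 windows, beside 6.59% of all windows with a match. These are matches of letters only.

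The receptors fell into 3 ranges of expression. MET, PTK7 and MST1R were abundant and made up between 93.6% and 97.1% of the summed level of the 10 genes in every library. TYRO3 was expressed at an intermediate level, ROR1 was near the counting limit in parental cells and clearly counted in both resistant lines, and AXL, MERTK, DDR1, KIT and RET stayed under 2 CPM in every library. The summed level was 528 ± 18.6 CPM in parental cells, 675 ± 15.4 CPM in R1 and 729 ± 9.22 CPM in R2 (SD, n = 3 libraries each).

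**Figure D1:**
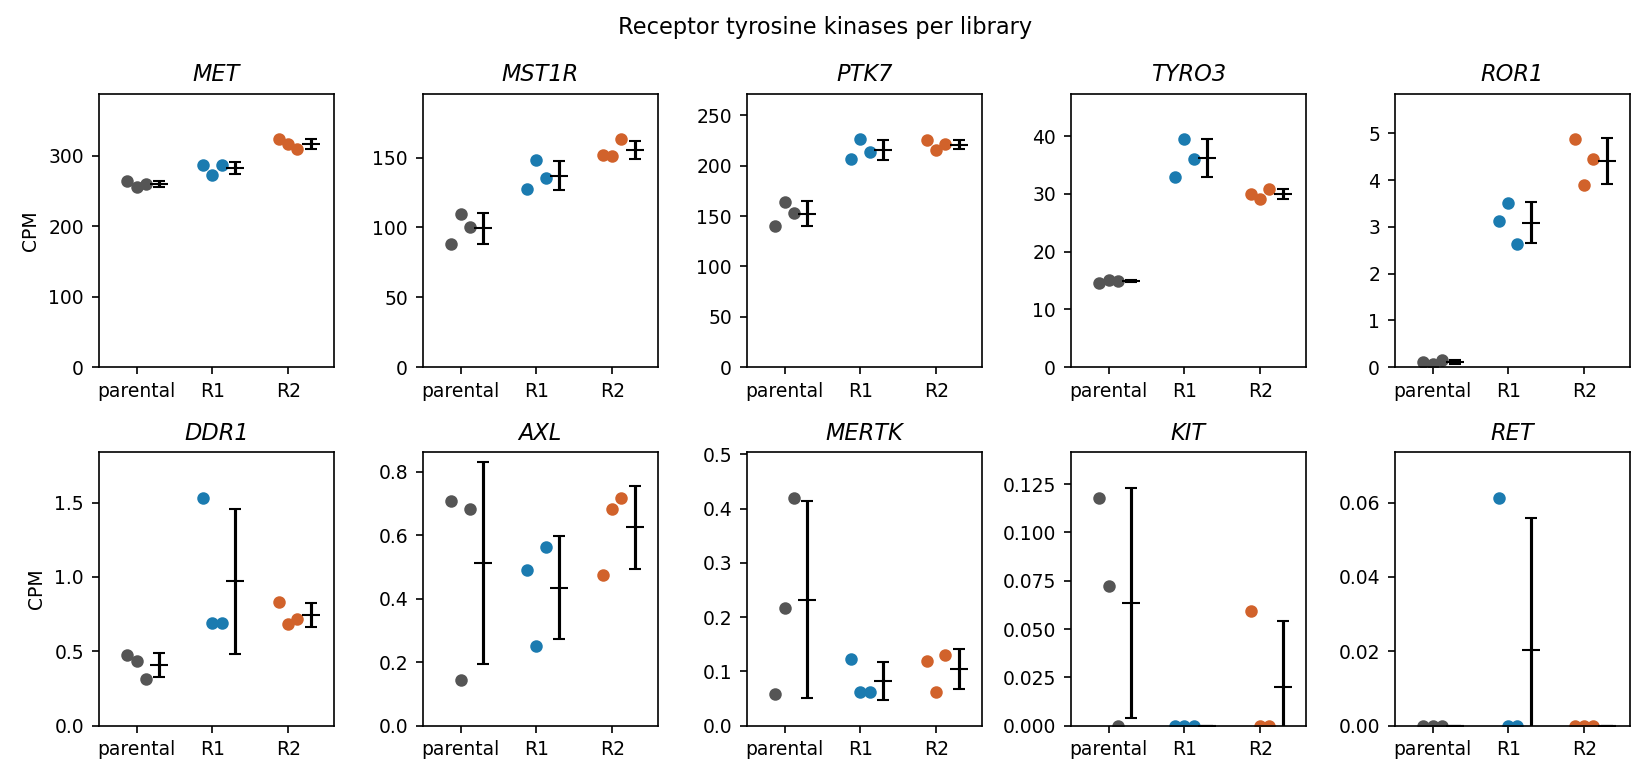
CPM of each of the 10 receptors in the 9 libraries, with 1 panel per gene, each with its own linear axis from 0. Points are libraries of parental cells (grey), R1 (blue) and R2 (orange), and the bars give the mean ± SD of 3 libraries. In the panels of MET, MST1R, PTK7, TYRO3, ROR1 and DDR1, every resistant library lies above every parental library; the panels of KIT and RET rest on 4 counts and 1 count.

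A gene was tested if it had at least 10 counts over the 9 libraries, which left 19102 genes and 8 of the 10 receptors. RET with 1 count and KIT with 4 counts were not tested. A gene is said to pass the test at an adjusted p of at most 0.01 in the quasi-likelihood test of edgeR, and it is called a differentially expressed gene (DEG) if its log2 fold change was also at least 1.5 in size. In R1 against parental cells, 4 receptors passed the test, all of them higher, where 27.3% of all genes tested passed and 14.0% were higher and 13.4% lower. In R2 against parental cells, 5 receptors passed, again all higher, against 23.8% of all genes, with 12.3% higher and 11.6% lower. ROR1 was the DEG among the receptors in each line, where 5.14% (R1) and 4.82% (R2) of all genes were DEGs. With 6 counts in parental cells, ROR1 entered these counts only through its reads in the resistant libraries. It was not tested when at least 10 counts were required in every library. At a log2 threshold of 1 TYRO3 would join it in each line, where 7.31% and 6.85% of all genes pass. The libraries of the line and of parental cells did not overlap for 6 of the 8 tested receptors in either line. The same held for 44.0% of all genes tested in R1 and 42.8% in R2. The 6 include DDR1, whose counts (20 in parental cells, 47 in R1 and 36 in R2) cannot be read as a level of expression. The median log2 fold change over the 8 tested receptors, with DDR1 included, was 0.48 in R1 and 0.59 in R2. Over all genes tested it was −0.011 and −0.0037.

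**Figure D2:**
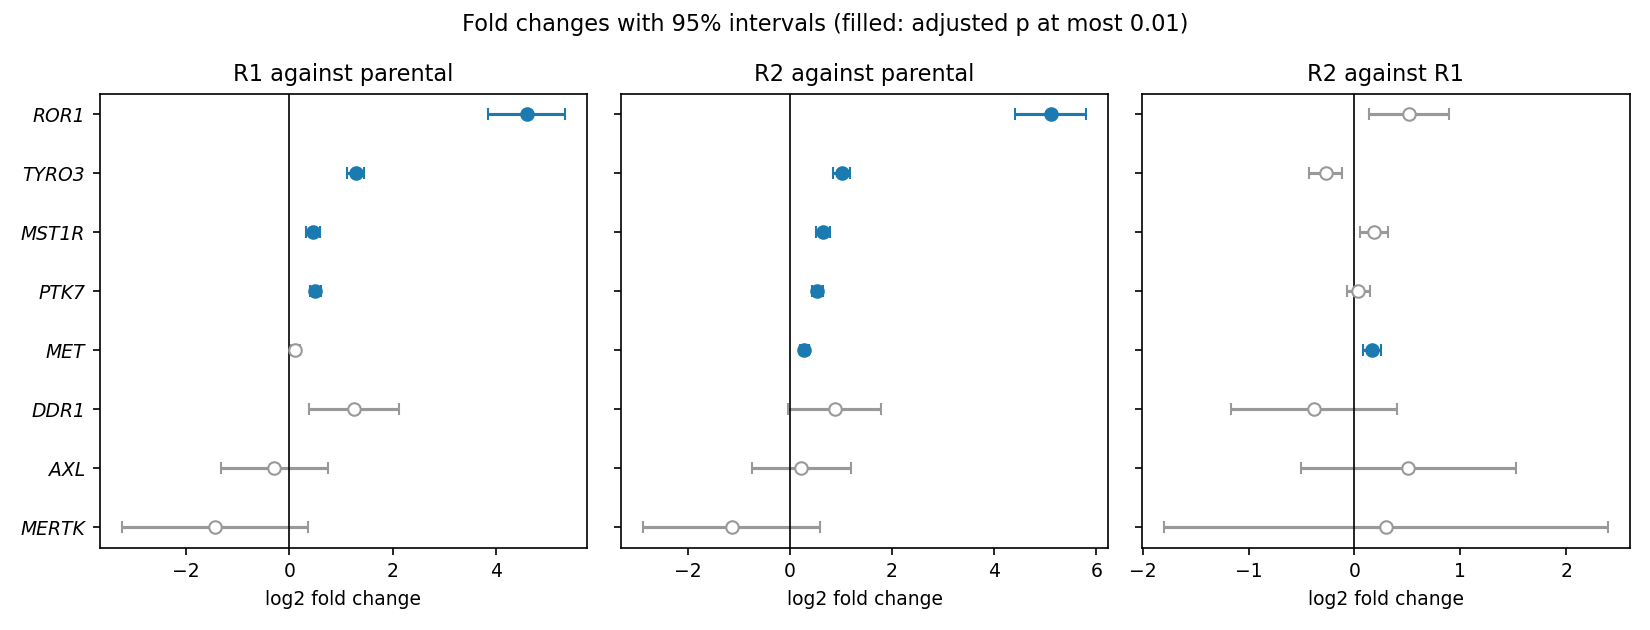
Log2 fold change of the 8 tested receptors in R1 and R2 against parental cells and in R2 against R1, from the edgeR fit. Points are the estimates, filled where the adjusted p is at most 0.01, and lines their 95% confidence intervals; the horizontal axes differ between panels. Against parental cells, the intervals of ROR1, TYRO3, MST1R and PTK7 lie above 0 in both lines, while those of AXL and MERTK span 0 in both.

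ROR1 (chr1:63774017-64181498, plus strand, hg38) is a receptor that binds WNT5A and is best known from embryonic tissue and leukaemia. It was counted at 0.118, 0.0722 and 0.158 CPM in the libraries of parental cells, at 3.13, 3.51 and 2.63 CPM in R1 and at 4.88, 3.90 and 4.44 CPM in R2. The parental libraries held 2, 1 and 3 reads of it, and the lowest resistant library lay far above the highest parental one. In raw counts, 6 reads in the 3 parental libraries together stood against 149 in R1 and 213 in R2. The ratio of counts, scaled by library size, was 25.0 in R1 (exact 95% counting interval 11.2 to 69.4) and 36.2 in R2 (16.4 to 99.8). On the log2 scale of the fit, ROR1 rose by 4.60 (SE 0.362, edgeR adjusted p = 4.65e-11) and 5.11 (SE 0.339, edgeR adjusted p = 1.29e-12). ROR1 passed the filter on low counts only through the resistant libraries. The antisense gene ROR1-AS1 had 0 counts in all 9 libraries.

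PTK7 (chr6:43076307-43161719, plus strand) is a pseudokinase that acts as a co-receptor in planar cell polarity and is abundant in colorectal cancer. Its level was 140.0, 164 and 153 CPM in parental cells, 207, 226 and 213 CPM in R1 and 225, 216 and 221 CPM in R2. The parental and resistant libraries did not overlap, whereas those of the resistant lines did. PTK7 rose by 0.50 on the log2 scale in R1 (SE 0.0531, edgeR adjusted p = 1.41e-08) and by 0.54 in R2 (SE 0.0530, edgeR adjusted p = 3.92e-09). The difference between the resistant lines was 0.04 with a 95% confidence interval from −0.072 to 0.14.

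TYRO3 (chr15:41557675-41583589, plus strand) was the only one of the 3 TAM receptors that passed the test. It was found at 14.6, 15.0 and 14.9 CPM in parental cells, at 33.0, 39.5 and 36.1 CPM in R1 and at 30.0, 29.0 and 30.9 CPM in R2. All resistant libraries were above all parental ones, and those of R1 were above those of R2. The log2 fold change against parental cells was 1.28 in R1 (SE 0.0827, edgeR adjusted p = 7.18e-13) and 1.01 in R2 (SE 0.0842, edgeR adjusted p = 1.37e-10). Its pseudogene TYRO3P had 4 counts in all, with 0 to 2 per library, and reads that both copies share may have been lost from either.

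AXL (chr19:41219223-41261766, plus strand), which binds GAS6 with high affinity and is known for mesenchymal and drug-tolerant cells, was at 0.708, 0.144 and 0.683 CPM in parental cells. It was at 0.491, 0.251 and 0.563 CPM in R1 and at 0.476, 0.681 and 0.718 CPM in R2, so the 3 groups overlapped. The count ratio was 0.785 in R1 (0.422 to 1.44) and 1.13 in R2 (0.651 to 1.98), and neither log2 fold change passed the test (−0.29, edgeR adjusted p = 0.715, and 0.22, edgeR adjusted p = 0.786). MERTK (chr2:111898607-112029561, plus strand), the TAM receptor of phagocytes, had 12 counts in parental cells, 4 in R1 and 5 in R2. Its count ratio was 0.336 (0.0790 to 1.11) and 0.425 (0.117 to 1.30), so a difference was not detectable at this depth.

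MET (chr7:116672196-116798377, plus strand) was the most abundant receptor of the 10 in CPM and per kilobase of joined exons. It was at 264, 255 and 260.0 CPM in parental cells, 287, 272 and 287 CPM in R1 and 323, 317 and 309 CPM in R2. The libraries of the 3 lines did not overlap, and the steps were small. In R2 MET rose by 0.28 on the log2 scale (SE 0.0425, edgeR adjusted p = 5.1e-06). In R1 the log2 difference was 0.12 (SE 0.0426, edgeR adjusted p = 0.0336) and did not pass the test, but it was 0.19 (edgeR adjusted p = 4.41e-06) once the trends of each library on GC content and length were removed, an alternative chosen after the data were seen.

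MST1R (chr3:49887002-49903873, minus strand) was at 88.0, 109.9 and 101 CPM in parental cells. It was at 127, 148 and 135 CPM in R1 and at 152, 151 and 163 CPM in R2. Every library of a resistant line exceeded every parental library, and R2 lay above R1 throughout. MST1R rose by 0.46 on the log2 scale in R1 (SE 0.0659, edgeR adjusted p = 2.18e-06) and by 0.65 in R2 (SE 0.0657, edgeR adjusted p = 6.76e-09).

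DDR1 (chr6:30876421-30900156, plus strand) had values that cannot be read as a level of expression. It had 20 counts in parental cells, 47 in R1 and 36 in R2, or 0.472, 0.433 and 0.315 CPM, 1.53, 0.690 and 0.688 CPM, and 0.832, 0.681 and 0.718 CPM in the single libraries. Its longest transcript aligned, at 98% identity or more over at least 80% of its length, to 4 alternate sequences of hg38 besides chromosome 6, whereas each of the other 9 receptors had 1 place and no alternate. Of the 86 protein-coding genes within 1 Mb of DDR1, 75 (87.2%) were under 1 CPM, and GNL1, ABCF1, GTF2H4 and VARS2, which most cells express, had 0 counts. That share was 25.5% around PTK7, which lies on the same chromosome, and 42.6% over all protein-coding genes. Whether reads of DDR1 were left out because they match several sequences was not tested. The counts that remained gave a log2 fold change of 1.26 in R1 (SE 0.423, edgeR adjusted p = 0.0204) and 0.88 in R2 (SE 0.443, edgeR adjusted p = 0.142), and neither passed the test. Without replicate 1 of R1, which held 25 of the 47 counts, the former was 0.77.

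**Figure D3:**
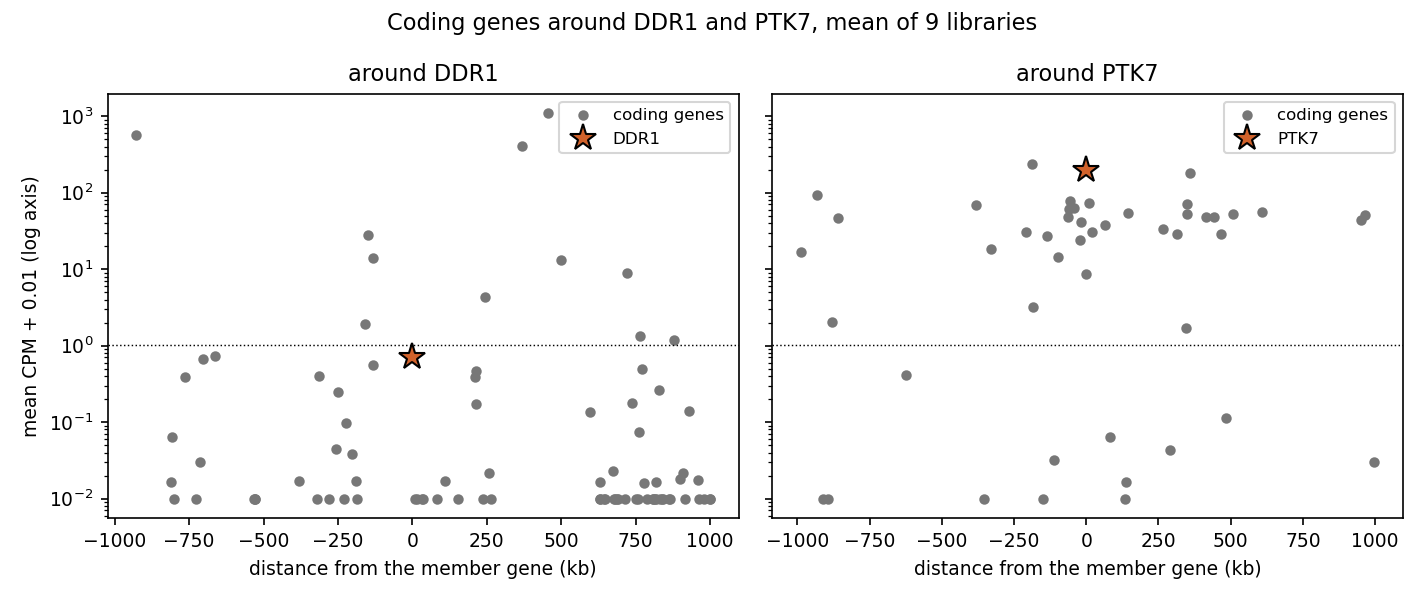
Mean CPM over the 9 libraries, plus 0.01 and on a log axis, of the protein-coding genes within 1 Mb of DDR1 (left) and of PTK7 (right), against their distance from the receptor gene in kb. Each grey point is a gene, the star is the receptor, and the dotted line marks 1 CPM; 75 of 86 genes around DDR1 and 12 of 47 around PTK7 were under 1 CPM.

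RET (chr10:43077064-43130351, plus strand) was represented by 1 count in replicate 1 of R1 and KIT (chr4:54657267-54740783, plus strand) by 3 counts in parental cells, 0 in R1 and 1 in R2. Over the 3 libraries of a line, 3 counts correspond to 0.0609 CPM in parental cells, 0.0615 CPM in R1 and 0.0622 CPM in R2, which is the level up to which RET would have been missed in the lines with no count. For KIT, the count ratio of R2 to parental cells was 0.340 (0.00648 to 4.24). No difference in either receptor was detectable at this depth.

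Levels of different genes were compared per kilobase of the exons of each gene joined over its transcripts. On this scale, the order in parental cells was MET (36.0 ± 0.625 CPM per kb), MST1R (18.9 ± 2.10), PTK7 (17.0 ± 1.35), TYRO3 (1.38 ± 0.0188), AXL (0.0997 ± 0.0620), MERTK (0.0561 ± 0.0438), DDR1 (0.0446 ± 0.00896), ROR1 (0.0173 ± 0.00636), KIT (0.00560 ± 0.00525) and RET (0; SD, n = 3 libraries). MST1R and PTK7 did not differ beyond their spread, nor did AXL and MERTK. The place of DDR1 in this order is that of its counts and, given the limit described above, not of its expression. In both resistant lines the first 4 places were the same, and ROR1 moved from place 8 to place 5, with 0.460 ± 0.0661 CPM per kb in R1 and 0.656 ± 0.0726 in R2. PTK7 stood above MST1R when the length of the longest transcript was used instead (28.8 ± 2.30 against 20.8 ± 2.31 in parental cells). With that length, MET (41.0 ± 1.25) and PTK7 (40.8 ± 1.88) did not differ beyond their spread in R1.

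EGFR, the target of cetuximab, was at 17.3 CPM per kb in parental cells, 14.4 in R1 and 17.9 in R2. It fell by 0.26 on the log2 scale in R1 (SE 0.0464, edgeR adjusted p = 4.41e-05) and had a log2 difference of 0.05 in R2 (edgeR adjusted p = 0.484). The ratio of MET to EGFR in CPM was 0.941 ± 0.0305 in parental cells, 1.23 ± 0.0784 in R1 and 1.11 ± 0.0384 in R2. For PTK7 the ratio was 0.551 ± 0.0356, 0.936 ± 0.0104 and 0.775 ± 0.0458, and for MST1R it was 0.359 ± 0.0345, 0.594 ± 0.0246 and 0.546 ± 0.0547 (SD, n = 3 libraries). Relative to EGFR, the means of these 3 receptors were thus higher in R1 than in R2, whereas the mean CPM of each was higher in R2. For MET and MST1R, the ratios in single libraries of the resistant lines overlapped.

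Between the resistant lines, MET was the 1 receptor that passed the test, and it was higher in R2, where 7.16% of all genes tested passed and 3.39% were higher. The libraries of the lines did not overlap for 4 of the 8 tested receptors, beside 28.0% of all genes. Its log2 difference was 0.17 (SE 0.0424, edgeR adjusted p = 0.00811). This call was lost when any one of 7 libraries was left out, which were replicates 1 and 3 of parental cells, 2 and 3 of R1 and all 3 of R2 (edgeR adjusted p from 0.0117 to 0.0601). No receptor was a DEG between the lines by edgeR, where 0.764% of all genes were, or by DESeq2. In the edgeR test, 4 receptors had an unadjusted p under 0.05. MST1R was 0.18 higher in R2 on the log2 scale (edgeR adjusted p = 0.062), TYRO3 was −0.27 (edgeR adjusted p = 0.0162) and ROR1 0.51 (edgeR adjusted p = 0.0687). TYRO3 passed without replicate 1 of R1 (edgeR adjusted p = 0.00419). The count ratio of ROR1 between R2 and R1 was 1.45 (1.17 to 1.79), an interval that covers counting error only.

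The receptors that rose were set beside the other tested protein-coding genes within 1 Mb that had at least 1 CPM. ROR1 had 8 such neighbours, with log2 fold changes from −1.39 to 0.11 in R1 and from −1.64 to 0.16 in R2. None of them passed the test upwards in either line, where 14.0% (R1) and 12.3% (R2) of all genes tested did. Downwards, 4 of the 8 passed in R1 and 2 in R2, beside 13.4% and 11.6% of all genes. The lowest was PGM1, an enzyme of glycogen metabolism. TYRO3 had 37 neighbours with medians of 0.01 and −0.04, and 2 of them in R1 and 3 in R2 changed by more than TYRO3 did. Such counts, here and for MST1R and PTK7, take the size of a change in either direction. For MST1R, 6 and 3 of 46 neighbours changed by more, and the medians were 0.12 and 0.05. For PTK7, 4 and 3 of 35 changed by more, and the medians were 0.09 and −0.03. Its highest neighbours were SRF in R1 (0.54) and VEGFA in R2 (0.38), and its lowest GUCA1B in R1 (−0.57) and KLC4 in R2 (−0.81). Around MET, CFTR, the chloride channel of epithelia, was 1.55 and 1.97 higher on the log2 scale, while the caveolar gene CAV1 was −0.65 and −1.14.

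**Figure D4:**
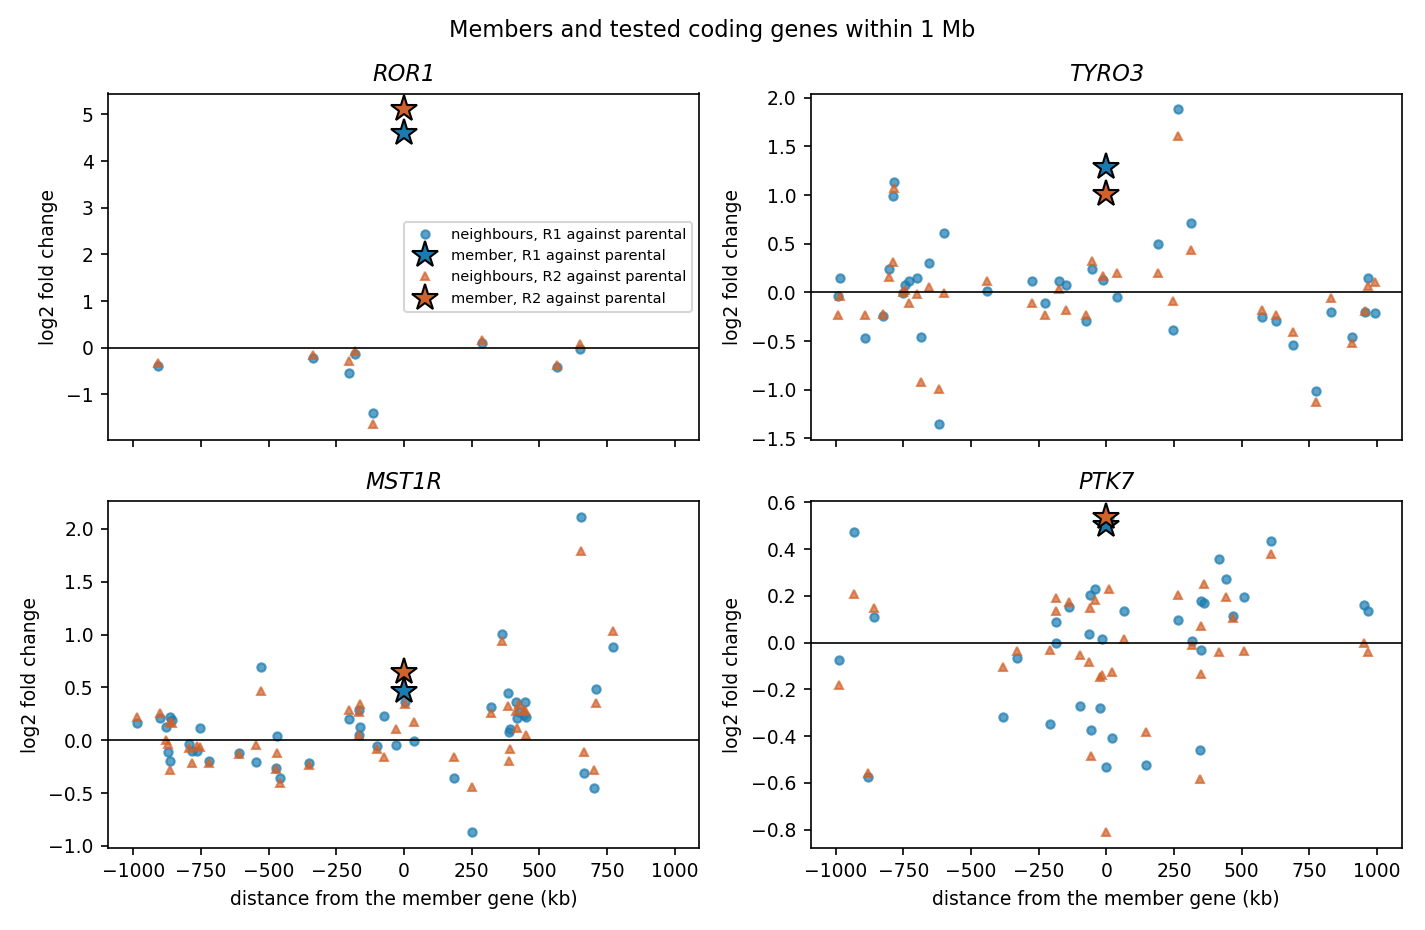
Log2 fold change against parental cells of ROR1, TYRO3, MST1R and PTK7 (stars) and of the tested protein-coding genes with at least 1 CPM within 1 Mb (circles for R1, triangles for R2), against the distance from the receptor gene in kb. The vertical axes differ between panels. ROR1 stands at 4.60 and 5.11 above neighbours that reach at most 0.16, whereas the stars of TYRO3 and MST1R have neighbours above them. The star of PTK7 has SRF above it in R1 (0.54 against 0.50) and no neighbour above it in R2.

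Among 15 ligands of the receptors, 9 were tested. In R1, 2 were higher and 2 lower, and in R2, 2 were higher and 1 lower; 27.3% and 23.8% of all genes passed in these lines, so that the count in R2 was near that share. The median log2 fold change of the ligands was −0.27 and −0.15. HGF, the ligand of MET, WNT5A, the ligand of ROR1, and GDNF had no count in any library and were not tested. GDF15, a stress cytokine that signals through RET together with its co-receptor GFRAL, was at 158, 180 and 176 CPM in parental cells, 488, 540 and 526 CPM in R1 and 410, 385 and 427 CPM in R2. It rose by 1.59 (edgeR adjusted p = 3.44e-19) and 1.25 (edgeR adjusted p = 6.44e-17) on the log2 scale. RET had 1 count in all and GFRAL had none, so neither was tested. PROS1, which encodes protein S, a ligand of TYRO3 and MERTK, moved opposite to TYRO3. It was at 29.5, 27.2 and 30.9 CPM in parental cells, 16.7, 16.1 and 15.4 CPM in R1 and 11.7, 11.2 and 12.5 CPM in R2, with log2 fold changes of −0.87 (edgeR adjusted p = 2.97e-09) and −1.31 (edgeR adjusted p = 1.69e-12). Chosen after their values were seen, GAS6, the other TAM ligand, fell by 0.27 in R1 (edgeR adjusted p = 0.000204) and was −0.15 in R2 (edgeR adjusted p = 0.0255), which passed the test without replicate 3 of R2 (edgeR adjusted p = 0.00452). KITLG, the ligand of KIT, rose by 0.73 (edgeR adjusted p = 8.08e-11) and 0.64 (edgeR adjusted p = 9.26e-10), while KIT had 4 counts in all.

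Of 7 co-receptors, 2 were tested, CD44 and PLXNB1, which associate with MET. PLXNB1 fell by 0.43 in R1 (edgeR adjusted p = 7.97e-07) and by 0.42 in R2 (edgeR adjusted p = 1.17e-06). None of 4 tested proteases and inhibitors that control the activation of hepatocyte growth factor passed the test in either line by edgeR or DESeq2, and 2 in R1 and 0 in R2 had an unadjusted p under 0.05. In R1, 1 of the 4 passed when replicate 2 of parental cells or replicate 1 of R1 was left out. Over all genes tested, 27.3% passed in R1 and 23.8% in R2. With so few genes tested, the counts in these lists cannot be set apart from those shares.

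All 10 genes listed as negative regulators of receptor tyrosine kinases were tested. In R1, 4 were lower and 2 higher, and in R2, 5 were lower and 1 higher, beside 27.3% and 23.8% of all genes that passed in either direction. The lower ones in R1 were CBLB, LRIG1 and the protease genes ADAM10 and ADAM17, and in R2 CBLC joined them. ADAM10 and ADAM17 do not act only as negative regulators, so their fall cannot be read as a loss of negative regulation. The log2 fold changes of ADAM10 were −0.30 in R1 and −0.17 in R2, and those of ADAM17 −0.33 and −0.37. Over the 10 genes of the list, the median log2 fold change was −0.022 in R1 and −0.26 in R2. CBLB, a ubiquitin ligase that marks activated receptors for degradation, was at 19.4, 15.5 and 18.5 CPM in parental cells, 6.13, 7.47 and 7.38 CPM in R1 and 5.95, 5.82 and 5.88 CPM in R2. It fell by 1.35 (edgeR adjusted p = 2.05e-10) and 1.60 (edgeR adjusted p = 1.19e-11) on the log2 scale. LRIG1, a membrane protein that restrains EGFR, MET and RET, was at 61.3, 61.7 and 59.9 CPM in parental cells, 28.0, 27.9 and 28.2 CPM in R1 and 22.8, 20.3 and 22.8 CPM in R2. Its log2 fold changes were −1.12 (edgeR adjusted p = 1.48e-13) and −1.47 (edgeR adjusted p = 8.29e-16). The other ubiquitin ligase CBL was 0.026 and 0.15 on the log2 scale and did not pass the test in either line (edgeR adjusted p = 0.804 and 0.073). The phosphatase gene PTPRJ went the other way, with a rise of 0.47 (edgeR adjusted p = 6.29e-06) and 0.48 (edgeR adjusted p = 4.3e-06).

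The 15 adaptors and effectors were all tested, and 4 were lower and 1 higher in R1, 6 lower and 1 higher in R2. The 5 of 15 in R1 were near the 27.3% of all genes that passed there, and 7 of 15 in R2 stood beside 23.8%. The median log2 fold change was −0.19 and −0.081. PIK3R1, the regulatory subunit of PI3K, was at 104, 95.2 and 94.8 CPM in parental cells, 50.6, 45.9 and 50.0 CPM in R1 and 53.9, 51.8 and 48.3 CPM in R2. It fell by 1.00 (edgeR adjusted p = 2.95e-13) and 0.93 (edgeR adjusted p = 1.3e-12) on the log2 scale. GAB1, the docking protein that MET binds directly, fell by 0.99 (edgeR adjusted p = 3.46e-09) and 0.84 (edgeR adjusted p = 4.63e-08). STAT3 was the adaptor or effector that rose, by 0.41 (edgeR adjusted p = 6.36e-08) and 0.31 (edgeR adjusted p = 4.68e-06).

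Of 11 partners of ROR1 and PTK7 in planar cell polarity and Wnt signalling, 10 were tested, and 3 were higher and 3 lower in each line, beside 27.3% (R1) and 23.8% (R2) of all genes that passed, with medians of −0.15 and −0.13. CELSR1, an atypical cadherin of the polarity complex, was at 1.77, 2.96 and 2.52 CPM in parental cells, 7.54, 9.91 and 8.51 CPM in R1 and 9.57, 8.98 and 7.38 CPM in R2. It rose by 1.85 on the log2 scale in both lines (edgeR adjusted p = 1.88e-09 and 1.83e-09). The Wnt receptor FZD7 was at 22.8, 20.0 and 21.2 CPM in parental cells, 7.97, 9.73 and 9.07 CPM in R1 and 7.07, 6.81 and 7.97 CPM in R2, and fell by 1.26 (edgeR adjusted p = 1.26e-10) and 1.55 (edgeR adjusted p = 3.29e-12). CELSR3 fell as well, by 0.95 (edgeR adjusted p = 9.8e-08) and 0.76 (edgeR adjusted p = 3.03e-06).

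Of 23 other receptor tyrosine kinases, 9 were tested, and 1 was higher and 1 lower in each line, near the share of all genes that passed (27.3% and 23.8%). Their medians were −0.27 and −0.080. ROR2, the relative of ROR1, had under 10 counts in all and was not tested. LMTK3 was the one that rose, by 0.53 (edgeR adjusted p = 4.58e-05) and 0.56 (edgeR adjusted p = 2.31e-05). FLT1, a receptor of VEGF-A, differed between the resistant lines: it was at 0.708, 0.939 and 0.525 CPM in parental cells, 0.184, 0.125 and 0.375 CPM in R1 and 1.19, 0.743 and 1.18 CPM in R2. The log2 difference of R2 to R1 was 2.15 (edgeR adjusted p = 0.0023), and the call was lost without replicate 2 of R1 or without replicate 1 or 3 of R2 (edgeR adjusted p up to 0.0197). Under the normal prior of DESeq2's lfcShrink function the difference was 0.84.

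**Figure D5:**
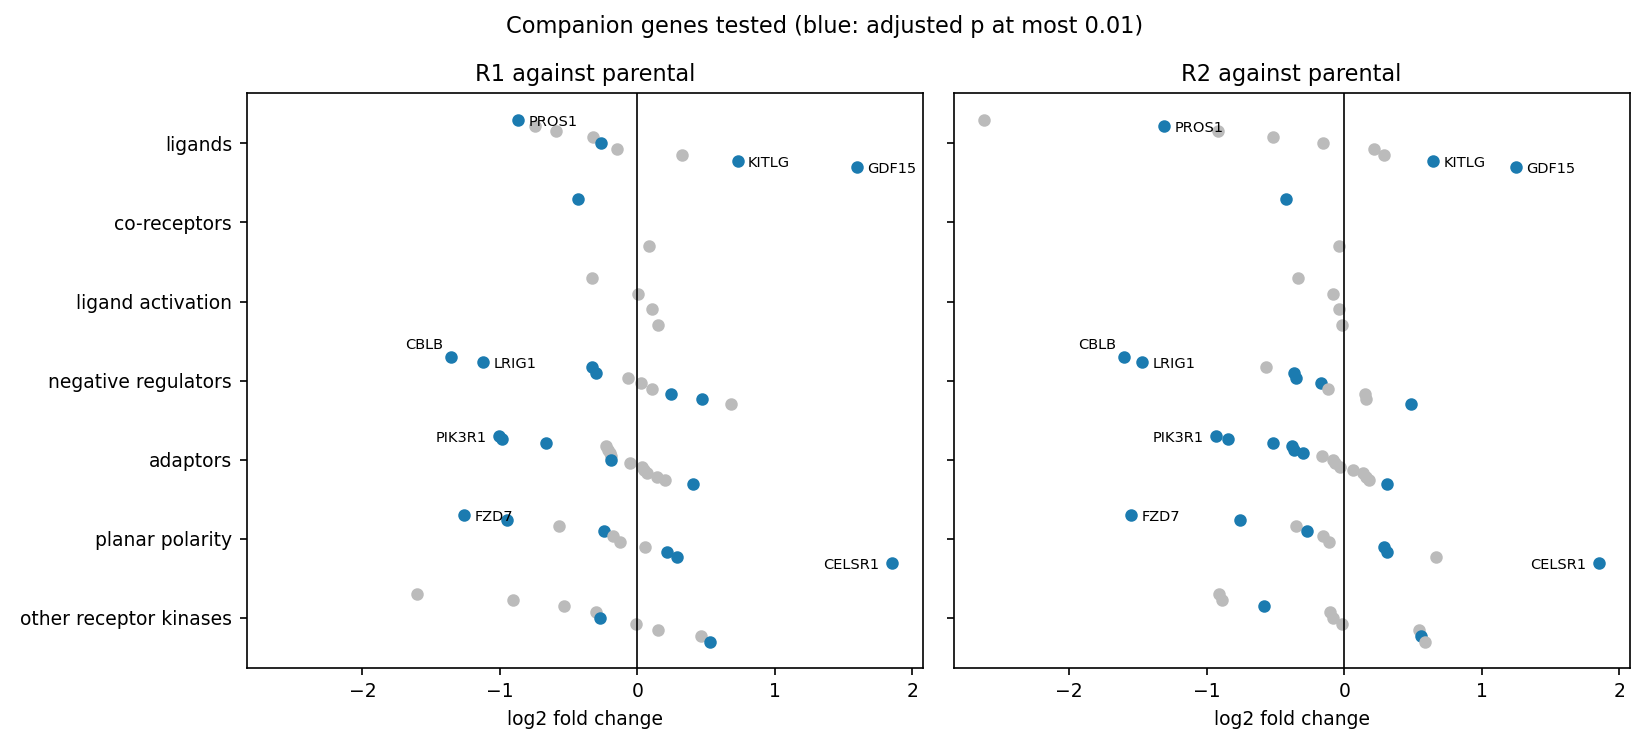
Log2 fold change against parental cells of the tested genes of 7 lists of ligands, co-receptors, regulators, adaptors and other receptor kinases, for R1 (left) and R2 (right). Each point is a gene, and blue points have an adjusted p of at most 0.01. GDF15 and CELSR1 lie above 1 and CBLB, LRIG1 and FZD7 below −1 in both panels.

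The pattern of ROR1 over the 9 libraries was compared with that of 12562 genes with a mean of at least 1 CPM, by Pearson's correlation of log2 CPM. The highest values were found for MELTF (r = 0.998), an iron-binding protein of the cell surface, for SLC5A1 (r = 0.997), the intestinal sodium-glucose transporter, and for SLC35F3 (r = 0.997), a solute carrier. MELTF was at 17.8 CPM in parental cells, 38.6 CPM in R1 and 43.8 CPM in R2, and SLC5A1 was at 2.20, 20.0 and 22.7 CPM (means of 3 libraries). The 9 points fall into 3 lines, and 594 genes had an r above 0.95 with ROR1.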

How the data were processed

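Stranded poly(A) libraries of the 3 LIM1215 lines were sequenced paired-end. The authors used STAR for alignment to hg38 and htseq-count 0.9.1, set to the reverse strand, for counting, and the deposited values are raw counts per gene and library with no normalization. The gene annotation is not given in the sources used here.

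The analysis ran in R 4.3.3 (edgeR 4.0.16, limma 3.58.1) with TMM factors (0.984 to 1.02), genes with at least 10 counts over 9 libraries, 1 quasi-likelihood fit of the 3 lines, 3 comparisons, two-sided tests and Benjamini-Hochberg adjustment over 19102 genes. CPM values use the TMM factors, and the SE was derived from the test statistic. Intervals of count ratios are exact 95% intervals and cover counting error only. Positions and exon lengths came from GENCODE release 44 for hg38, promoter sequences from RefSeq, where all 10 receptors matched, and transcripts were aligned with minimap2 2.31. Figures and intervals were made in Python 3.11.15 with SciPy 1.17.1.

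The receptors, the companion and marker lists and the tests were chosen with earlier results of these data known. The genes named were the receptors, EGFR, list genes with an adjusted p of at most 0.01, a log2 fold change of at least 1 in size and at least 1 CPM in the higher group in any comparison, and the 3 genes most like each receptor that was a DEG; GAS6, KITLG and other list or neighbouring genes were named after their values were seen. Alternatives were DESeq2 1.42.0, its size factors and lfcShrink function, other filters and thresholds, fits of 6 libraries, a replicate block, each library left out, and, added after the data were seen, a correction of each library for GC content and length (known for 85.7% of the genes tested). The tests were tried on simulated data. Replicates differed by more than sampling noise.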

Additional observations from a re-analysis of the deposited data

Results flagged for a closer look

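The changes of 6 named genes against LIM1215-parental differed between the resistant lines, as tested directly by LIM1215-R2 against LIM1215-R1 with edgeR. In this comparison 7.16% of all genes tested passed. MET was higher in LIM1215-R2 by 0.17 on the log2 scale (edgeR adjusted p = 0.00811) and EGFR by 0.31 (edgeR adjusted p = 2.3e-05), both in 3 of 3 libraries. PROS1 was −0.45 (edgeR adjusted p = 0.00165), GDF15 −0.35 (edgeR adjusted p = 1.64e-05) and LRIG1 −0.35 (edgeR adjusted p = 0.00162), each lower in 3 of 3 libraries of LIM1215-R2. FLT1 was 2.15 higher (edgeR adjusted p = 0.0023), or 0.84 under the normal prior of lfcShrink. The call of MET was lost without most of the single libraries, as given above (edgeR adjusted p up to 0.0601). That of FLT1 was lost without replicate 2 of LIM1215-R1 or replicate 1 or 3 of LIM1215-R2 (edgeR adjusted p up to 0.0197). The call of LRIG1 was lost without replicate 3 of LIM1215-R1 or replicate 2 of LIM1215-R2 (edgeR adjusted p up to 0.0228), and that of PROS1 without replicate 1 or 2 of LIM1215-R2 (edgeR adjusted p up to 0.0174).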

How the results depend on the processing

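Against LIM1215-parental, ROR1, TYRO3, MST1R and PTK7 passed the test in every alternative that tested them. With at least 10 counts required in every library, ROR1 was no longer tested, so the number of receptors among the DEGs was 0 in each line instead of 1, and with a log2 threshold of 1 it was 2 in each line. Under the normal prior of lfcShrink, the change of ROR1 was 2.14 and 2.56.

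Between the resistant lines, the number of receptors past the test, 1 as reported, was 0 with DESeq2's size factors, without a filter on low counts or with the 6 libraries of the comparison alone, between 0 and 2 with single libraries left out, and 3 with the trends on GC content and length removed. With the replicate number as a block it was 3, as MST1R (adjusted p = 0.00511) and TYRO3 (adjusted p = 0.00691) joined MET; GAS6 in LIM1215-R2 against LIM1215-parental passed as well (adjusted p = 0.00524), as did 1 of the genes that control the activation of hepatocyte growth factor in LIM1215-R1. With the trends on GC content and length removed, GAS6 also passed in LIM1215-R2. The cause of these differences was not tested. The numbers were not taken to pair the libraries, since the deviations of same-numbered libraries correlated at −0.17 to 0.49 over 10936 genes and only 4 of 9 pairs exceeded 0.1.

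With single libraries left out, AXL in LIM1215-R2 ranged from −0.16 (without replicate 2 of LIM1215-parental) to 0.47, against 0.22 with all libraries. DDR1 between the resistant lines ranged from −0.58 to 0.11 (without replicate 1 of LIM1215-R1), against −0.38. With the length of the longest transcript, 6 of 10 receptors kept their place in the order of levels in LIM1215-parental. Depth limits RET, KIT, MERTK and AXL.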
